A study of Homo sapiens with 8 samples.

Results

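Human liver cells grown in a perfused scaffold were compared with the same kind of cells grown as a flat monolayer. The samples were chosen by the group given in the labels: the 2 arrays of group 3DBR against the 3 arrays of group 2D, 5 of the 8 arrays in the series. The remaining 3 arrays, group 3D, hold cells in the same scaffold without flow. They entered the normalisation and the estimate of spread, and appear below only as a second reference. Of these, 2 sit on another chip than the perfused arrays, so perfused against static does not isolate flow.

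Group 2D was a conventional monolayer seeded with 250000 living cells. Group 3DBR was seeded with 1000000 living cells on the MatriGrid, a microporous polycarbonate support, in a bioreactor through which a peristaltic pump drove medium. Both were harvested after 5 days, and neither carried a genetic change or a drug. Scaffold, flow, cell number and array chip therefore differ together between the groups, and their effects cannot be told apart. The labels contradict each other on the cells: the design text describes hepatocytes from 3 donors, while each sample carries the cell line entry HepG2, an established hepatoma line. RNA was read on Illumina HumanHT-12 v4 bead arrays, which measure brightness at 1 probe or a few probes per gene. Nothing in the labels ties an array to a donor or a separate culture, so p-values measure only the spread between these samples.

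Hepatocytes carry out drug oxidation and conjugation, make most plasma proteins, and handle nitrogen, lipids, bile acids and glucose. On flat plastic they are known to lose much of this programme within days while cytoskeletal, keratin and matrix genes become more active. The cytochrome P450 enzymes, haem proteins that oxidise drugs with electrons supplied by the reductase POR, are among the functions lost earliest. CYP3A4 handles the widest range of drugs among them, and its transcription is switched on by the nuclear receptors PXR and CAR, which bind DNA as partners of RXRA.

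Values below are normalised log2 intensities, in which 1 unit is a doubling, and differences are perfused minus 2D with the standard error (SE) of the fit. Between 29.7% and 34.3% of the 47323 probes were detected per array, and 11031 genes were tested. One monolayer stood apart. Over all genes tested, 2D replicate 1 had a median Pearson correlation of 0.881 with the other 4 arrays, against 0.946 to 0.951 for each of those. Its 18 macrophage markers averaged 6.83, against 9.001 to 10.37 on the other 4 arrays, and its 35 cell cycle genes averaged 9.97, against 7.38 to 7.90. Its 14 hepatocyte markers averaged 11.80, against 12.97 to 13.84. Static 3D replicate 1 had the same low macrophage mean (6.86) and high cell cycle mean (9.71). Differences below are therefore given with all 5 arrays and again without 2D replicate 1, the second value being marked "without" in parentheses.

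The labelled cell type was checked against markers. ALB, serum albumin, was near the top of the scale on all 5 arrays (15.63 to 15.78) and AFP, the fetal albumin-like protein, lay between 8.94 and 10.25. C1QB, a complement component made by macrophages, read 12.71 and 10.99 in 2D replicates 2 and 3 and 12.77 and 10.91 in the perfused scaffolds, but 5.45 in 2D replicate 1. COL1A1, the fibroblast collagen, followed it with 11.59, 11.33, 11.87 and 10.95 on those 4 arrays against 6.35. Of the 5 arrays, 4 thus carried macrophage and fibroblast transcripts beside hepatocyte ones, while on 2D replicate 1 both of these genes were low and 7 of 18 macrophage markers were detected. KRT19 and KRT7 are keratins of bile duct cells and cultured hepatocytes. KRT19 was abundant on all 5 arrays (14.31 to 14.89). KRT7 was highest on 2D replicate 1 (12.35), against 11.09 and 10.97 in the other monolayers and 9.64 and 9.21 in the perfused scaffolds. The files do not settle which of the contradictory labels holds.

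Across the whole array, 1 gene passed the test (limma, Benjamini-Hochberg adjusted p under 0.05 over 11031 genes). That gene, CYP3A4, rose in the perfused scaffolds, and it makes up 0.00907% of the genes tested; 0 genes (0%) fell. At an unadjusted p under 0.05 there were 277 genes higher (2.51%) and 190 lower (1.72%). Over all genes the balance was even: 5610 genes were higher and 5421 lower, with a median difference of 0.0077. The sizes were lopsided, since 355 genes were over 1 log2 unit higher in the perfused scaffolds and 140 over 1 unit lower. A weaker, untested description is used below for gene lists, namely whether both perfused arrays lie outside the range of the 3 monolayers. In that sense 1192 genes (10.8%) were higher with no overlap and 1116 (10.1%) lower, and counts in a list are to be read against those shares. Arbitrary labels on alike arrays would give shares of about this size too.

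**Figure D1:**
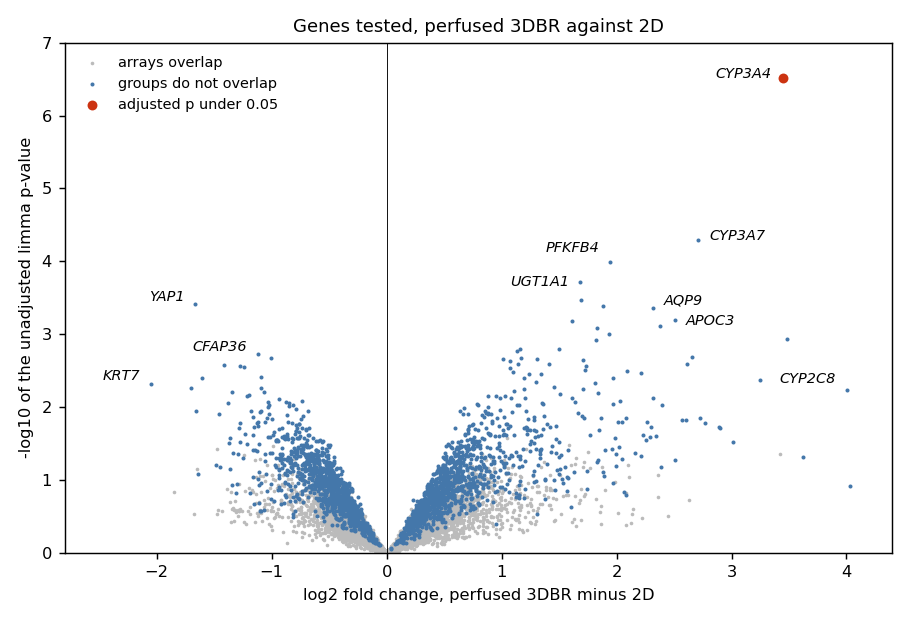
Each point is a gene tested, with the log2 fold change (perfused 3DBR, n = 2, minus 2D, n = 3) on the horizontal axis and −log10 of the unadjusted limma p-value on the vertical axis; XIST and genes of the Y chromosome are not drawn. CYP3A4 at 3.45 stands alone at the top, and CYP3A7 and PFKFB4 follow without passing the adjusted threshold. Points past 1 log2 unit are more numerous on the right, in a fit that includes 2D replicate 1.

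CYP3A4 was detected in both perfused scaffolds and in no monolayer. Its log2 level was 6.02, 5.72 and 5.80 in the monolayers (5.85 ± 0.15, SD, n = 3) and 9.06 and 9.53 in the perfused scaffolds (9.29 ± 0.34, SD, n = 2). Before normalisation the same probe read 245, 229 and 263 intensity units against 692 and 1063. The groups were far apart and no monolayer approached the lower perfused value. The difference was 3.45 (SE 0.24, limma adjusted p = 0.00337), which is at least 5.59-fold once undetected arrays are set to the lowest detected level. Without 2D replicate 1 it was 3.53. In the static scaffolds the probe was also undetected, at 5.88, 5.54 and 5.59, so perfused minus static was 3.63 (SE 0.24, adjusted p = 0.00223). Since 2 detected arrays were required, CYP3A4 entered the test through the perfused arrays alone. With no such requirement it still passed (adjusted p = 0.00142). The call was lost with chip as a fixed block (3.13, adjusted p = 0.371), without perfused replicate 2 (3.21, adjusted p = 0.0509) and when the static arrays were left out (3.51, adjusted p = 0.117).

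The CYP3A genes lie side by side on chromosome 7 and their promoters are close copies, so the 250 bases before each start site are shown for the 3 measured members (RefSeq, GRCh38.p14, all on the minus strand, printed 5′ to 3′ as transcribed). CYP3A4 occupies chr7:99784185-99784434, CYP3A7 chr7:99735197-99735446 and CYP3A5 chr7:99679997-99680246. Capitals mark the everted repeat ER6, the known binding element of PXR and CAR in the CYP3A4 promoter, or the stretch nearest to it.
CYP3A4: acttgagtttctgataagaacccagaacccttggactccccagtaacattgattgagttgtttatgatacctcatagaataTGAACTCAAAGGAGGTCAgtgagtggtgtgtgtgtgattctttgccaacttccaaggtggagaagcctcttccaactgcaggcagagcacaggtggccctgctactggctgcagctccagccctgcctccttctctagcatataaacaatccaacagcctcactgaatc
CYP3A7: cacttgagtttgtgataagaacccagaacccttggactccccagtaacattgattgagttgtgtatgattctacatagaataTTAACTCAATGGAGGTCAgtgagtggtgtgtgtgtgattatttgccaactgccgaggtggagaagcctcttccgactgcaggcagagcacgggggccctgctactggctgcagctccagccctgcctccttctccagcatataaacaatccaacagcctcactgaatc
CYP3A5: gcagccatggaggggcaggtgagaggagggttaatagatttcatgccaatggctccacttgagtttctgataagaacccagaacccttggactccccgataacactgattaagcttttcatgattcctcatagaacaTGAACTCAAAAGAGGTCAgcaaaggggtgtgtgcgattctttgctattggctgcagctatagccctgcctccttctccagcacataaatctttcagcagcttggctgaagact

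The repeat was searched on both strands as TGAACT and AGGTCA spaced by 6 bases. It was found in 3 of 35116 promoter windows of that length (0.00854%), those of CYP3A4, CYP3A5 and ITGB1BP2, starting 169 bases before the start site of CYP3A4 and 113 bases before that of CYP3A5. In CYP3A7 the stretch starting at base 168 differs from the repeat by G2T, counted from 1 at the first base of TGAACT. The element AGGTCA alone is common, being present in 12.1% of windows. The CYP3A4 and CYP3A7 windows are identical in 236 of 251 aligned columns (94.0%). A match is a description of the letters and shows neither binding nor its absence.

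The members of this cluster did not move alike. CYP3A7, the form dominant in fetal liver, read 6.93, 6.30 and 6.99 in the monolayers and 9.05 and 9.84 in the perfused scaffolds. The groups were well separated, and the difference was 2.71 (SE 0.36), or 2.80 without 2D replicate 1. Its adjusted p of 0.283 was the smallest after that of CYP3A4. CYP3A5, the other adult form, read 8.94, 10.12 and 9.39 against 10.37 and 10.02; its groups overlapped and it differed by 0.71 (SE 0.36, 0.44 without). Because CYP3A transcripts are near-identical, probes may cross-react to a degree that was not tested. POR, the electron donor, read 9.26, 10.09 and 10.07 against 11.25 and 11.59, with both perfused arrays above every monolayer and every static scaffold. It differed by 1.62 (SE 0.31, 1.34 without 2D replicate 1). RXRA, named after its values were seen to complete the list, read 10.62 to 12.07 against 12.01 and 11.57 and differed by 0.25 (SE 0.42), or −0.21 without 2D replicate 1. The genes of PXR and CAR were not analysed here. Over these 5 genes the median difference was 1.62, or 1.34 without 2D replicate 1.

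**Figure D2:**
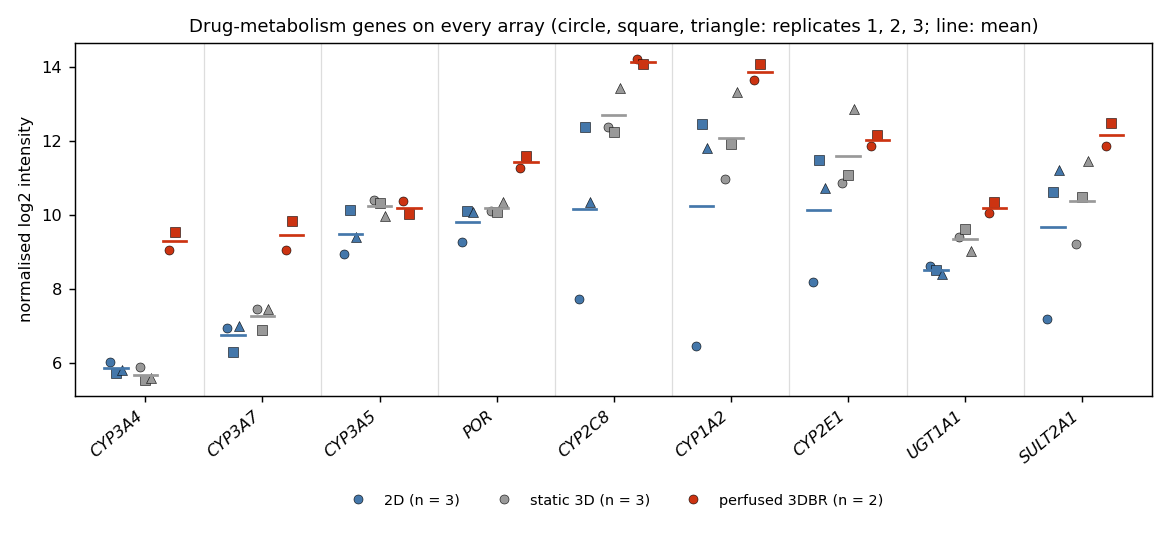
Normalised log2 intensity (vertical axis) of 9 drug-metabolism genes on every array of the 2D, static 3D and perfused 3DBR groups; symbols are replicates and short lines are group means. CYP3A4 and CYP3A7 are high only in the perfused scaffolds, while for CYP2C8, CYP1A2, CYP2E1 and SULT2A1 the lowest point is always 2D replicate 1.

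Among 10 other measured P450 genes of drug metabolism, 9 were higher in the perfused scaffolds, 4 of them without overlap (40% against 10.8% of all genes), with a median of 1.18. CYP2C8, which metabolises paclitaxel and some antidiabetics, read 7.71, 12.37 and 10.35 in the monolayers and 14.22 and 14.07 in the perfused scaffolds. The perfused pair was tight and above all 6 other arrays, whereas the monolayers were widely spread. The difference was 4.002 (SE 1.09), or 2.79 without 2D replicate 1. CYP1A2, the caffeine-oxidising form, read 6.45, 12.47 and 11.81 against 13.65 and 14.08, and its difference shrank from 3.62 (SE 1.57) to 1.73. CYP2E1, the ethanol-inducible form, read 8.19, 11.49 and 10.72 against 11.87 and 12.15, and its difference shrank from 1.88 (SE 0.93) to 0.91. In all 3 both perfused arrays lay above every monolayer, which leaving out a monolayer cannot change. Much of the size came from a single monolayer. The list median was 0.34 without it. CYP2R1, a vitamin D hydroxylase, was the member below zero (−0.17, SE 0.27, −0.31 without).

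Alcohol, aldehyde and epoxide metabolism followed the same pattern in a weaker form. Of 33 measured members 24 were higher, 12 of them with no overlap (36.4%), and the median was 0.47 (0.32 without 2D replicate 1). ADH1A, an alcohol dehydrogenase, read 7.03, 10.89 and 10.15 against 12.24 and 12.50, a difference of 3.01 (SE 1.16, 1.85 without 2D replicate 1). Its close paralogue ADH1B was not detected in any monolayer and was detected in both perfused scaffolds, at least 2.34-fold higher. Probes of the ADH1 genes may share signal. EPHX2, soluble epoxide hydrolase, was 1.28 higher (SE 0.63, 0.67 without), and ALDH8A1, a retinal-oxidising aldehyde dehydrogenase, 1.27 higher (SE 0.65, 0.56 without). ALDH1B1, a mitochondrial aldehyde dehydrogenase, was lower in both perfused scaffolds (7.94 and 8.61 against 8.81 to 9.89; −0.96, SE 0.42, −0.64 without), although a second, dimmer probe of the gene gave 0.23.

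Conjugation was mixed. Of 31 measured enzymes 22 were higher, but only 4 (12.9% against 10.8% of all genes) lay above the monolayers without overlap. The median of 0.35 became −0.04 without 2D replicate 1. UGT1A1, which conjugates bilirubin and shares its last exons with the other UGT1A genes, read 8.63, 8.51 and 8.40 in the monolayers and 10.04 and 10.34 in the perfused scaffolds. Both groups were tight, and the difference of 1.68 (SE 0.27) did not depend on 2D replicate 1 (1.74 without it). SULT2A1, the sulfotransferase of steroids and bile acids, read 7.17, 10.61 and 11.22 against 11.85 and 12.49, and its difference shrank from 2.51 (SE 1.12) to 1.26 without 2D replicate 1. UGT3A1 was 1.53 higher (SE 0.86, 0.60 without). HNMT, which inactivates histamine, was slightly lower (−0.47, SE 0.37, −0.50 without), with another of its probes at 0.33.

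Transporters of the hepatocyte membrane were higher for 18 of 20 measured members, 6 of them (30%) with no overlap, and the median was 0.61 (0.27 without 2D replicate 1). AQP9, the channel through which hepatocytes take up glycerol, read 8.03, 9.35 and 8.04 in the monolayers and 10.63 and 10.95 in the perfused scaffolds. All perfused values exceeded all 6 other arrays, and the difference was 2.32 (SE 0.42, 2.10 without). SLC38A3, a glutamine transporter, was 2.23 higher (SE 0.81, 1.61 without). SLC22A7, an organic anion carrier, was 2.09 higher (SE 0.68, 1.63 without) on the brightest of 3 probes, and the dimmest gave −0.13. ABCG8, one component of the biliary sterol pump, was 0.92 higher (SE 0.30, 0.88 without). The glucose carrier SLC2A2 went the other way, at 11.01, 10.81 and 10.72 against 10.09 and 10.42 (−0.59, SE 0.31, −0.51 without).

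Genes of secreted proteins were almost uniformly higher in the perfused scaffolds than in the monolayers, although none passed the test. All 17 measured apolipoprotein and lipoprotein assembly genes were higher, 10 of them with no overlap (58.8% against 10.8% of all genes), with a median of 1.02 (0.52 without 2D replicate 1). APOA4, which stabilises triglyceride-rich particles, read 8.50, 10.39 and 9.14 in the monolayers and 13.35 and 12.30 in the perfused scaffolds, a difference of 3.48 (SE 0.73, 3.06 without). APOC3, an inhibitor of lipoprotein lipase, read 11.68, 13.21 and 13.22 against 15.22 and 15.20. In both genes the lower perfused array was far above the highest monolayer, and the difference for APOC3 was 2.51 (SE 0.48, 2.00 without). APOA1, the main HDL protein, was 1.23 higher (SE 0.40, 0.93 without). In RNA from mixed cells, fewer cells of a type and less RNA per cell cannot be told apart, and the hepatocyte marker mean itself moved with these genes: 11.80, 13.38 and 12.97 in the monolayers and 13.84 and 13.63 in the perfused scaffolds. That marker list shares genes with the lists of secreted proteins, among them APOA1, TF and HP, so its mean is not a separate measure of cell content. The part of cell content in the differences was not tested. Static scaffolds reached into the perfused range. Apolipoprotein array means were 11.23, 11.04 and 11.59 static against 11.82 and 11.38 perfused. Plasma carrier means were 12.09, 11.19 and 12.26 against 11.78 and 11.97, and coagulation means 10.86, 10.71 and 11.08 against 10.92 and 10.62.

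Plasma carriers behaved likewise, with 13 of 14 higher, 10 without overlap (71.4%) and a median of 0.96 (0.58 without 2D replicate 1). SHBG, which binds sex steroids, read 7.37, 9.26 and 8.64 against 10.59 and 9.94 (1.84, SE 0.51, 1.31 without). TF, transferrin, was 1.64 higher (SE 0.48, 1.19 without) and AHSG, fetuin-A, 2.16 higher (SE 0.90, 1.11 without). Albumin was the exception, with a difference of −0.0019 (SE 0.16, 0.05 without) at the top of the intensity scale. Its sign turned with the scaling (0.14 after median scaling).

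Coagulation genes were higher for 23 of 25 members, 7 without overlap (28%), with a median of 0.79 that became 0.29 without 2D replicate 1. SERPINC1, antithrombin, read 9.82, 10.97 and 10.60 in the monolayers and 12.28 and 12.51 in the perfused scaffolds (1.93, SE 0.39, 1.61 without). KNG1, kininogen, was 2.90 higher (SE 1.01, 1.69 without) and PLG, plasminogen, 2.30 higher (SE 0.79, 1.499 without), while PLAU, urokinase, overlapped at −0.45 (SE 0.38, −0.08 without). Complement genes were higher for 14 of 17, 6 without overlap (35.3%), with a median of 1.12 (0.45 without). In this group CFHR2, a factor H relative, was 2.29 higher (SE 0.85, 1.46 without), the protease C1R 2.04 higher (SE 0.68, 1.42 without) and factor B, CFB, 1.47 higher (SE 0.55, 0.83 without). The lectin MBL2 overlapped at −0.30 (SE 0.72, −0.21 without).

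Acute-phase proteins were higher for 24 of 25 members, but the median of 0.99 became 0.21 when 2D replicate 1 was left out, and 7 members (28%) lay apart. Haptoglobin, HP, read 9.51, 12.40 and 11.04 against 13.34 and 12.62 (2.00, SE 0.85, 1.26 without), with the static scaffolds at 12.28, 14.12 and 14.30. The decoy IL1RN, which blocks the interleukin-1 receptor, read 9.11, 10.11 and 9.59 against 12.30 and 10.89 (1.99, SE 0.74, 1.74 without). LCN2, which sequesters bacterial siderophores, differed between the perfused arrays themselves, at 12.02 and 13.49 above monolayers of 10.92 to 11.19. Its difference of 1.71 (SE 0.40) was 1.70 without 2D replicate 1. SAA2, a serum amyloid with a near-identical paralogue, was detected on 1 monolayer and on neither perfused array.

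Secreted regulators were higher for 16 of 20, 8 without overlap (40%), with a median of 0.65 (0.36 without 2D replicate 1). ANGPTL8, an insulin-responsive inhibitor of lipoprotein lipase, read 8.12, 10.34 and 9.86 in the monolayers and 12.37 and 11.82 in the perfused scaffolds. The highest static scaffold (11.82) all but equalled the lower perfused value, and the difference was 2.65 (SE 0.61, 1.99 without). ANGPTL4, an inhibitor of the same lipase, was 1.24 higher (SE 0.51, 0.71 without). IGFBP4, an inhibitory binder of insulin-like growth factors, was lower instead: 12.07, 12.79 and 12.85 against 11.91 and 11.41 (−0.91, SE 0.32, −1.16 without).

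Genes induced by low oxygen were mostly higher in the perfused scaffolds. Cells sense oxygen through hydroxylases that destroy the HIF transcription factors; when oxygen is short, HIF binds the core ACGTG and raises glycolytic and angiogenic genes. Of 26 measured hypoxia genes outside glycolysis, 23 were higher, 15 of them without overlap (57.7% against 10.8%), with a median of 0.75 (0.62 without). HILPDA, a lipid droplet protein, read 8.33, 6.002 and 6.12 in the monolayers and 10.38 and 9.75 in the perfused scaffolds. Here 2D replicate 1 was the highest monolayer, so the difference of 3.25 (SE 0.84) became 4.004 without it. HILPDA was detected on no other monolayer, as replicates 2 and 3 read below the lowest detected levels of their arrays (6.80 and 6.89). The size of 4.004 therefore rests on undetected monolayers. HILPDA passed the test when 2D replicate 1 and static 3D replicate 1 were left out together (limma adjusted p = 0.0211), again against undetected monolayers. ANKRD37, an ankyrin-repeat HIF target, read 8.28, 7.62 and 7.82 against 10.17 and 10.06 (2.21, SE 0.55, 2.39 without). ADM, the vasodilator adrenomedullin, read 10.87, 12.09 and 11.34 against 13.26 and 13.34 (1.87, SE 0.61, 1.59 without). EPO, erythropoietin, was 2.27 higher (SE 0.76, 1.73 without). FAM162A, a mitochondrial HIF target, was detected on 1 monolayer and on neither perfused array. For the first 4 both perfused arrays lay above every monolayer, which was a condition for naming them.

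Glycolysis genes were higher for 20 of 25, 7 without overlap (28%), with a smaller median of 0.31 (0.18 without 2D replicate 1, 0.58 without perfused replicate 2). PFKFB4, a bifunctional enzyme that sets the level of the glycolytic activator fructose-2,6-bisphosphate, read 8.32, 8.26 and 8.19 against 10.48 and 9.93 (1.95, SE 0.29, 1.98 without). ENO2, the neuronal form of enolase, read 6.69, 7.70 and 6.36 against 9.78 and 8.81 (2.38, SE 0.47, 2.27 without), and ALDOC, an aldolase, was 1.21 higher (SE 0.38, 0.89 without). LDHB, the lactate dehydrogenase subunit of oxidative tissues, ran opposite, at 10.89, 8.43 and 7.84 against 7.16 and 7.67 (−1.64, SE 0.84, −0.72 without). Static scaffolds lay as high as perfused ones for PFKFB4 (10.58, 9.97 and 10.21) and ENO2 (9.04, 9.52 and 8.84), so for these genes the perfused arrays did not stand apart from the scaffold without flow.

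**Figure D3:**
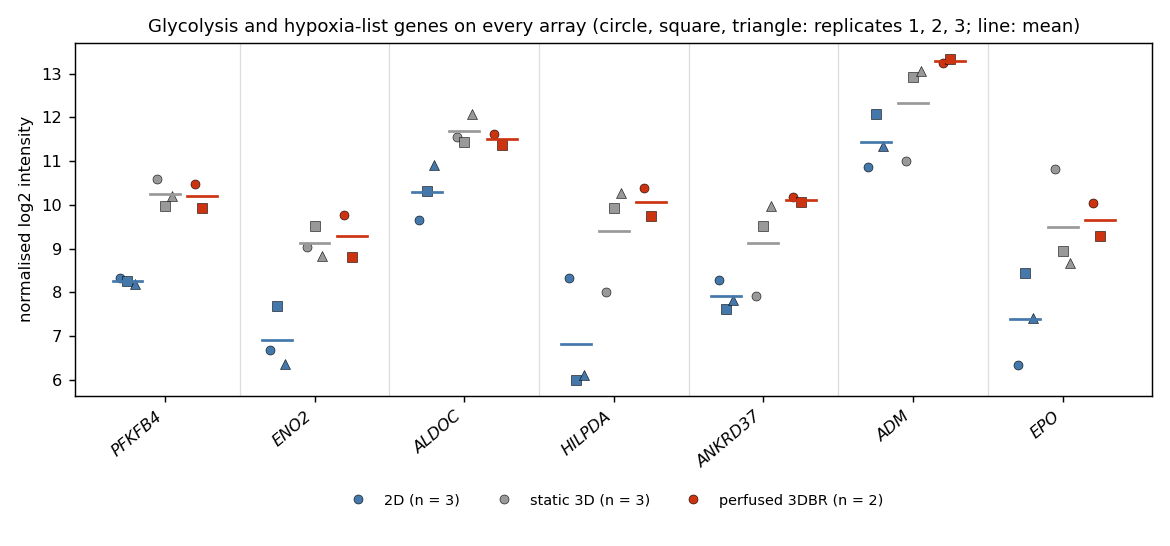
Normalised log2 intensity (vertical axis) of 7 genes of the glycolysis and hypoxia lists on every array; symbols are replicates and short lines are group means. Perfused arrays lie above all monolayers for each gene, which was a condition for naming it. Static 3D arrays reach into or past the perfused range for PFKFB4, ENO2, ALDOC, HILPDA and EPO.

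The promoters of 2 of these genes are shown with the HIF core in capitals, for the 250 bases before the start site (RefSeq, GRCh38.p14, plus strand): ENO2 at chr12:6914330-6914579 and ANKRD37 at chr4:185396591-185396840.
ENO2: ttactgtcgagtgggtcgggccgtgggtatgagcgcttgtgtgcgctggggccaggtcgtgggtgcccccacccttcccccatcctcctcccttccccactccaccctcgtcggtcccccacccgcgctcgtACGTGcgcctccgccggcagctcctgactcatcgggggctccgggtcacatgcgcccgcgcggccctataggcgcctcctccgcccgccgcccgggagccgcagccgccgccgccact
ANKRD37: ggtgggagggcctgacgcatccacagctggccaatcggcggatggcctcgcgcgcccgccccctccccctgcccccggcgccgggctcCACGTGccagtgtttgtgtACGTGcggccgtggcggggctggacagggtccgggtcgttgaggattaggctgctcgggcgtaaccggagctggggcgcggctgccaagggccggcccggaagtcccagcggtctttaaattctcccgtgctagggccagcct

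ENO2 holds ACGTG 118 bases before its start. ANKRD37 holds it 143 bases before, and also within CACGTG, which starts at base 162 and reads ACGTG on both strands. ACGTG on either strand occurs in 18.5% of all 35116 windows and in the windows of 21.7% of the 27305 genes in that table. Of the 26 measured hypoxia genes, 20 have a window there and 14 of those hold the core; of the 25 glycolysis genes, 23 have one and 14 hold it. Among members that were higher without overlap the counts were 6 of 11 and 4 of 7. The core was therefore no more frequent among the separated members than among their lists, and as these lists were built from known targets its frequency is a description only.

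Nitrogen and amino acid metabolism was higher in the perfused scaffolds for most genes. Of 33 amino acid catabolism and methionine cycle genes 28 were higher, 13 of them (39.4%) without overlap, with a median of 0.59 (0.26 without 2D replicate 1). BHMT, which regenerates methionine from homocysteine with betaine, read 8.90, 9.35 and 9.03 against 10.90 and 10.66. The groups were tight and well apart, giving 1.69 (SE 0.29, 1.59 without). AGXT, which detoxifies glyoxylate, was 1.97 higher (SE 0.59, 1.37 without), while MAT1A, the methionine adenosyltransferase of adult liver, depended on 2D replicate 1 (1.53, SE 0.82, 0.62 without). AHCY, which splits S-adenosylhomocysteine, was at −0.49 with overlap (SE 0.42, −0.20 without). In the urea cycle list 10 of 13 were higher, 6 without overlap (46.2%), with a median of 0.26 (0.16 without). CPS1, which commits ammonia to urea, read 8.24, 10.26 and 9.43 against 11.42 and 11.27 (2.03, SE 0.59, 1.49 without), OTC was 1.77 higher (SE 0.64, 1.14 without) and ARG1 1.89 higher (SE 0.99, 0.68 without). The aspartate carrier SLC25A13 was lower (−0.59, SE 0.34, −0.33 without).

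Lipid and sterol genes were higher as well, with smaller differences. Fatty acid oxidation genes were higher for 27 of 29 (12, or 41.4%, without overlap; median 0.43, 0.26 without 2D replicate 1). CREB3L3, a liver transcription factor of the fasting response, read 6.99, 9.66 and 7.39 against 10.80 and 10.02 (2.39, SE 0.72, 1.88 without), and the acyl-CoA dehydrogenase ACADS was 1.37 higher (SE 0.44, 1.06 without). The isomerase ECI2 overlapped between groups at −0.73 (SE 0.45, −0.30 without). The desaturases FADS2 and FADS1, which make polyunsaturated fatty acids, were 1.46 (SE 0.39, 1.35 without) and 1.24 higher (SE 0.44, 1.15 without), with FADS2 at 9.16, 9.14 and 9.83 against 10.54 and 11.13. Both lay above the static scaffolds too. The carbohydrate sensor MLXIPL was 1.28 higher (SE 0.41, 0.94 without). ELOVL5, the elongase that acts on the products of those desaturases, ran opposite at 8.64, 8.06 and 8.63 against 6.97 and 7.36 (−1.27, SE 0.30, −1.17 without). The lipogenesis list as a whole was mixed, with 18 of 25 higher and a median of 0.30 (0.38 without). Without overlap, 6 were above (24% against 10.8% of all genes) and 3 below (12% against 10.1%).

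Bile acid genes were higher for 9 of 11 (4 without overlap, 36.4%; median 0.40, 0.35 without 2D replicate 1). CYP8B1, which sets the cholic acid share of bile acids, read 6.47, 9.89 and 9.94 against 10.99 and 10.97 (2.21, SE 0.95, 1.06 without), and CYP27A1, the sterol 27-hydroxylase, was 1.35 higher (SE 0.49, 0.81 without), while KLB, the FGF19 co-receptor, was at −0.49 with overlap (SE 0.45, −0.34 without). Of 18 cholesterol genes 15 were higher, 3 without overlap (16.7% against 10.8% of all genes), with a median of 0.41 (0.19 without). They included DHCR7, the last step of synthesis, at 0.96 (SE 0.39, 0.68 without) and the HDL receptor SCARB1 at 0.85 (SE 0.26, 0.68 without). IDI1, of isoprenoid synthesis, was at −0.34 (SE 0.33, −0.38 without) with overlap. Gluconeogenesis and glycogen genes were higher for 12 of 17 (median 0.48, 0.31 without), with PPP1R3C, a glycogen-targeting phosphatase subunit, at 1.36 (SE 0.48, 1.04 without). PYGB, the brain form of glycogen phosphorylase, was lower (−0.53, SE 0.38, −0.52 without). With chip as a fixed block the medians of the bile acid, gluconeogenesis and cholesterol lists turned negative (−0.44, −0.13 and −0.04).

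On the other side of the comparison, YAP1 had the smallest p among genes lower in the perfused scaffolds. Its product, the transcriptional coactivator YAP, carries mechanical signals from spread and stretched cells to the nucleus. YAP1 read 8.46, 7.88 and 8.09 in the monolayers, detected in all 3, and 6.62 and 6.34 in the perfused scaffolds, detected in neither. The static scaffolds resembled the monolayers, at 7.48, 8.01 and 7.95. The difference was −1.67 (SE 0.29, −1.51 without 2D replicate 1), a level at least 2.58-fold lower, and it did not pass the adjusted threshold (adjusted p = 0.611). Of 18 YAP and TAZ genes and targets 13 were lower, 4 of them without overlap (22.2% against 10.1%), with a median of −0.50 (−0.32 without). NT5E, which makes adenosine, was −0.93 (SE 0.50, −0.45 without). CCN2, the classical YAP target, was barely lower (12.41, 12.57 and 12.30 against 12.26 and 11.76; −0.42, SE 0.26, −0.43 without), and its second probe gave −0.09. LATS2, the kinase that inactivates YAP, was 0.48 higher (SE 0.31, 0.51 without).

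The list of keratins, vimentin and dedifferentiation markers was lower for 22 of 28 measured members. Of these, 7 (25% against 10.1% of all genes) were lower without overlap, and none was higher without overlap. The list is mixed, since CDH2 also belongs to the hepatocyte junction list. The median of −0.20 was −0.21 without 2D replicate 1, but 0.05 with chip as a fixed block. KRT7, a bile duct keratin that hepatocytes acquire in culture, read 12.35, 11.09 and 10.97 in the monolayers and 9.64 and 9.21 in the perfused scaffolds, a difference of −2.05 (SE 0.54, −1.61 without). ANXA3, an annexin described in proliferating rat hepatocytes, read 10.36, 9.92 and 9.29 against 8.44 and 7.88 (−1.70, SE 0.46, −1.44 without). CDH2, the N-cadherin of hepatocyte contacts, was at 12.62 to 12.63 in the monolayers and 12.48 and 11.51 in the perfused scaffolds (−0.63, SE 0.31, −0.63 without). The most abundant members moved little: vimentin, VIM, was −0.30 (SE 0.23, −0.12 without) and KRT19 −0.34 (SE 0.25, −0.30 without). SPP1, osteopontin, ran opposite with overlapping groups, at 10.13, 13.59 and 12.48 against 14.05 and 13.13 (1.52, SE 1.37, 0.55 without). The size of KRT7 and ANXA3 was thus not a property of the whole list.

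**Figure D4:**
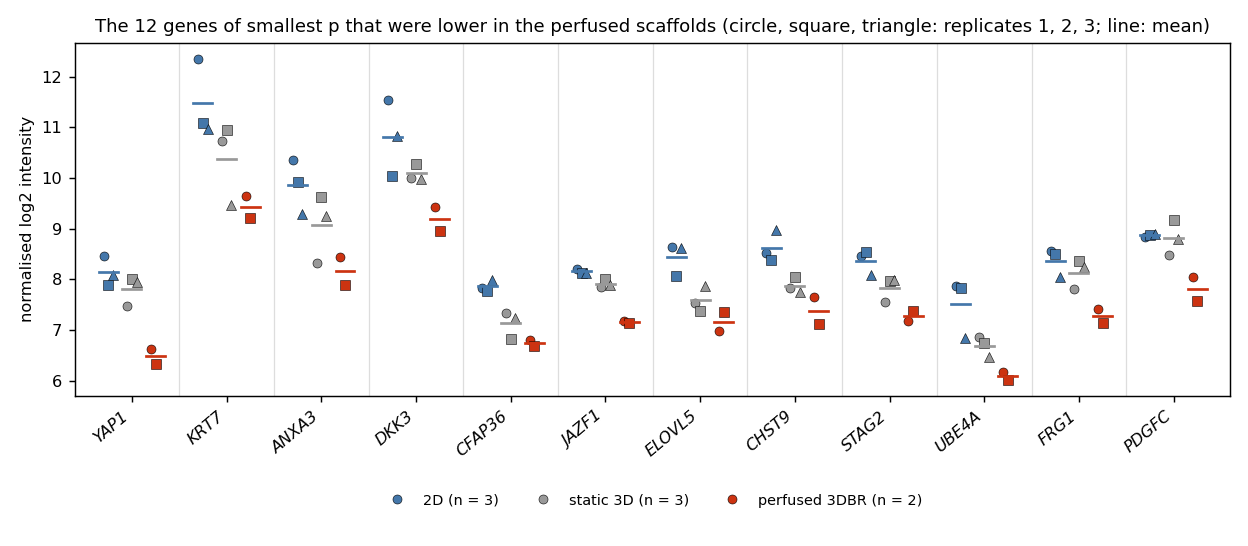
Normalised log2 intensity (vertical axis) of the 12 genes with the smallest p among those lower in the perfused scaffolds without overlap, on every array; symbols are replicates and short lines are group means. Perfused arrays lie below all monolayers in each gene, from −1.002 for JAZF1 to −2.05 for KRT7, and in every gene except KRT7 and ANXA3 they are also below every static array.

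Matrix and cytoskeletal genes gave no uniform shift. DKK3, a secreted Wnt modulator, read 11.54, 10.05 and 10.83 against 9.43 and 8.96 (−1.61, SE 0.41, −1.24 without 2D replicate 1), and 2 further probes were also negative (−1.85 and −0.52). THBS1, thrombospondin, was −1.46 (SE 0.46, −1.15 without), the laminin chain LAMB1 −0.68 (SE 0.24, −0.67 without), the focal adhesion protein VCL −0.70 (SE 0.34, −0.45 without) and the integrin subunit ITGAV −0.60 (SE 0.27, −0.70 without). Each of these lay below all monolayers, which was a condition for naming it. In the collagen and laminin list as a whole 19 of 27 were higher with a median of 0.31, which became −0.21 without 2D replicate 1. Of 27 actin genes 15 were lower (median −0.05, −0.11 without, and 0.02 in the authors' processed values), with ACTA2, smooth muscle actin, opposite at 0.51 (SE 0.66, −0.19 without). In the junction list, split evenly at 12 higher and 12 lower, the tight junction gene CLDN3 read 6.23, 7.20 and 6.93 against 8.37 and 8.66 (1.73, SE 0.42, 1.45 without), and the desmosomal PKP2 was lower (−0.91, SE 0.42, −0.58 without).

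The remaining genes lower with the smallest p have varied roles. JAZF1, a nuclear cofactor, read 8.21, 8.13 and 8.13 against 7.17 and 7.14 (−1.002, SE 0.23, −0.98 without 2D replicate 1). PDGFC, a growth factor, read 8.83, 8.88 and 8.89 against 8.05 and 7.56 (−1.06, SE 0.29, −1.08 without), and the sulfotransferase CHST9 was −1.24 (SE 0.30, −1.30 without). Perfused arrays below all monolayers were a condition for naming each of these genes. CFAP36 (−1.12, SE 0.25, −1.14 without), UBE4A, a ubiquitin ligase (−1.41, SE 0.34, −1.24 without), the cohesin subunit STAG2 (−1.09, SE 0.28, −1.04 without) and FRG1 (−1.10, SE 0.30, −1.002 without) completed the list. On the higher side, beside genes already given, the 12 of smallest p held GLTPD2, at 7.45, 7.86 and 7.32 against 9.08 and 9.77 (1.88, SE 0.34, 1.83 without), and SYT17, a synaptotagmin, at 5.93, 6.86 and 7.11 against 8.53 and 8.40 (1.83, SE 0.36, 1.48 without).

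Genes of protein synthesis and respiration were lower by small amounts in many members. Of 41 ribosomal protein genes 34 were lower, 13 without overlap (31.7% against 10.1% of all genes), with a median of −0.33 (−0.22 without 2D replicate 1). RPL23 read 10.14, 10.60 and 9.78 against 9.31 and 8.73 (−1.15, SE 0.40, −1.17 without), while RPL37 was 0.70 higher (SE 0.34, 0.65 without). Ribosomal protein genes have many processed copies, so their probes are uncertain. Of 45 respiratory chain and ATP synthase genes 32 were lower, 13 without overlap (28.9%), with a median of −0.13 (−0.15 without). The ATP synthase subunit ATP5F1C read 10.90, 10.004 and 9.84 against 8.71 and 9.21 (−1.29, SE 0.45, −0.96 without), and UQCRH of complex III was −1.16 (SE 0.48, −0.97 without). NDUFS7 of complex I was 0.50 higher (SE 0.26, 0.29 without). Proteasome genes were lower for 25 of 27 (6 without overlap, 22.2%), with a median of −0.25 that became −0.08 without 2D replicate 1; PSMA3 was −0.84 (SE 0.38, −0.44 without) and PSMD3 0.16 (SE 0.39, 0.26 without).

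Cell cycle genes show how far 1 array can carry a list. Of 35 measured members 34 were lower in the perfused scaffolds, with a median of −0.83. Yet the median was −0.11 without 2D replicate 1, and 5 members (14.3% against 10.1% of all genes) were below all monolayers. TOP2A, the topoisomerase of dividing cells, read 10.68, 7.90 and 6.70 in the monolayers and 7.30 and 6.61 in the perfused scaffolds. Only 2D replicate 1 stood clear, and the difference went from −1.47 (SE 1.33) to −0.35. TPX2, a spindle protein, went from −1.11 (SE 0.92) to −0.28 and RRM1, the ribonucleotide reductase subunit, from −0.76 (SE 0.52) to −0.30. The member above zero was CCNE1, cyclin E1, at 0.02 (SE 0.25, 0.15 without, −0.03 after median scaling).

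No stress or inflammatory gene passed the test. Of 22 heat shock genes 8 were higher (median −0.06, 0.05 without, −0.13 to 0.088 when single replicates were left out), but the inducible HSPA1B read 10.23, 9.87 and 10.23 against 10.98 and 11.56 (1.16, SE 0.26, 1.22 without 2D replicate 1) and HSPA6 was 1.66 higher (SE 0.52, 1.73 without); HSPA1B shares nearly all its sequence with HSPA1A, and probes may not separate them. HSPA4, a constitutive member, was −0.998 (SE 0.33, −0.76 without). Chemokine and cytokine genes were higher for 18 of 22, with a median of 0.43 that became 0.02 without 2D replicate 1. The neutrophil chemokine CXCL5 read 6.29, 8.09 and 7.76 against 10.10 and 9.43 (2.38, SE 1.14, 1.84 without), and lymphotoxin, LTB, was 0.99 higher (SE 0.28, 0.92 without), whereas CXCL2 was lower (−0.50, SE 0.42, −0.64 without). MMP9, a matrix protease of leukocytes, read 5.68, 12.60 and 10.57 against 14.19 and 13.10 (4.03, SE 2.35, 2.06 without). The macrophage list moved with these genes: all 18 measured members were higher, none without overlap, and the array means were 6.83, 10.36 and 9.001 in the monolayers and 10.37 and 9.27 in the perfused scaffolds. The median of 0.97 became 0.19 without 2D replicate 1. Its part in the values of the leukocyte genes was not tested.

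Markers of other cells and of hepatoma gave small medians. Stellate and fibroblast markers had a median of 0.20 (−0.19 without 2D replicate 1), endothelial markers −0.08 (−0.31 without), bile duct markers 0.03 (0.01 without, −0.01 after median scaling) and lymphocyte markers 0.17 (0.00098 without). IL7R, the interleukin-7 receptor of lymphocytes, was not detected in the monolayers and at least 1.83-fold higher in the perfused scaffolds. Opposite to their lists, PDGFRA of fibroblasts was at −0.83 (SE 0.39, −1.17 without), the leukocyte PTPRC at −0.28 (SE 0.29, −0.49 without) and the endothelial ENG at 0.89 (SE 0.72, 0.50 without), all with overlap. In the oncofetal list, with a median of 0.03 (0.01 without, −0.03 after median scaling), AFP was lower, at 10.25, 9.88 and 9.43 against 9.22 and 8.94 (−0.78, SE 0.32, −0.58 without). IGF2BP3, a fetal RNA-binding protein, was detected on 2D replicate 1 and on no other of the 5 arrays. Values were 8.41, 5.70 and 6.49 against 5.75 and 5.52, so the groups overlapped. H19, the imprinted fetal RNA, was uneven within the perfused pair, at 8.30, 8.33 and 6.63 against 10.99 and 8.45 (1.97, SE 1.11, 2.24 without).

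**Figure D5:**
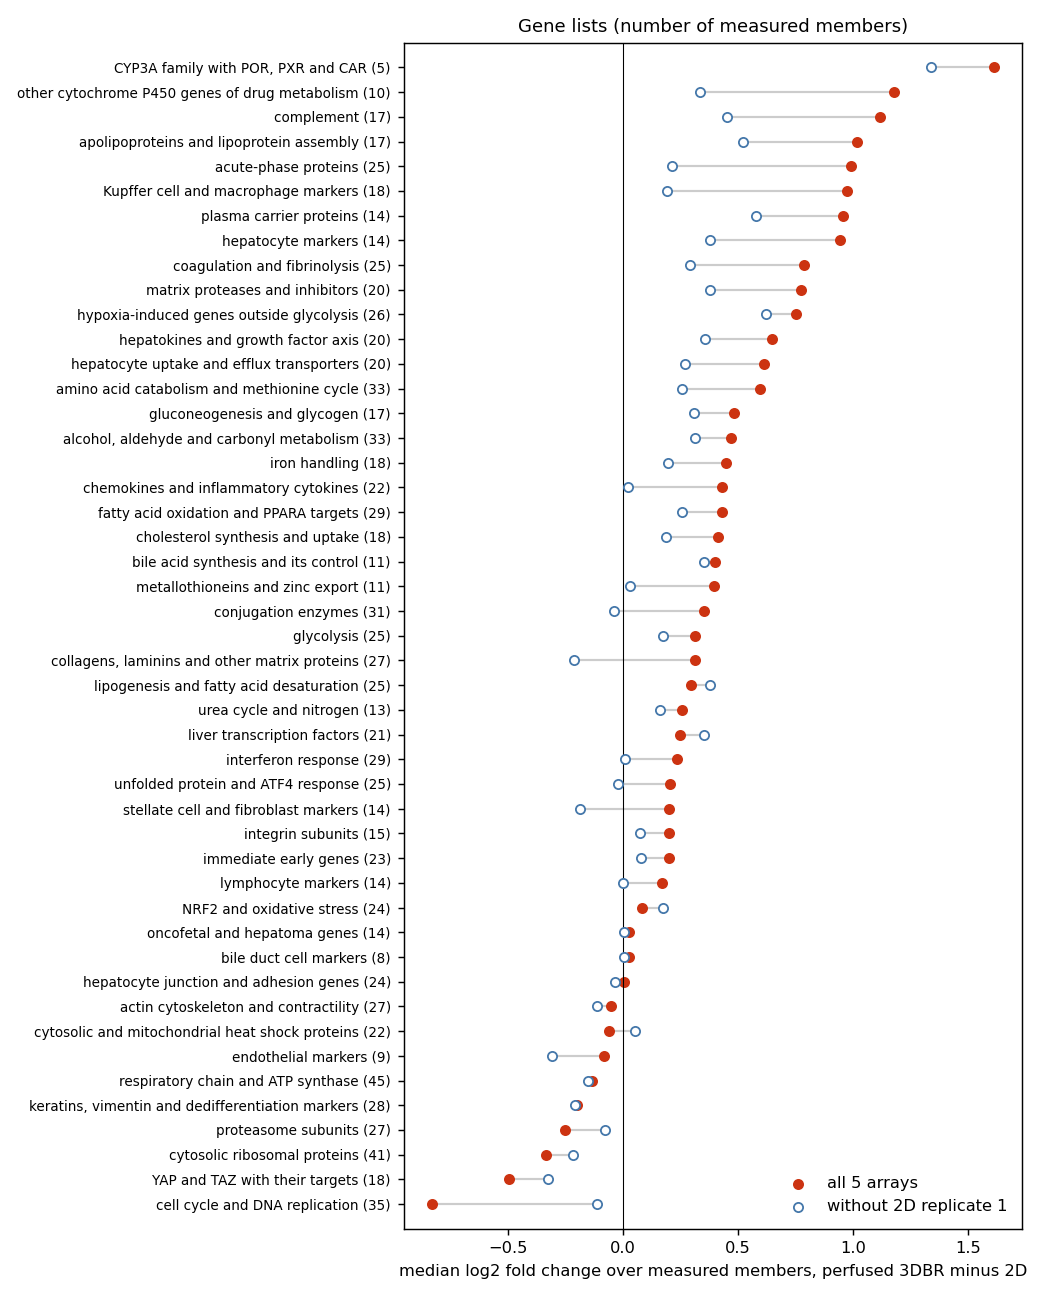
Median log2 fold change (horizontal axis, perfused 3DBR minus 2D) over the measured members of 47 gene lists, with all 5 arrays (filled red) and without 2D replicate 1 (open blue); the number of measured members stands in parentheses. The CYP3A, hypoxia, apolipoprotein and plasma carrier lists stay furthest right without 2D replicate 1, at 1.34, 0.62, 0.52 and 0.58, and the cell cycle list moves from −0.83 to −0.11.

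Detection gave a last view, in which genes were counted without fold changes and then ranked by the bound on the fold. The criteria below are unlike, since the first asks for detection on both perfused arrays and the second on all 3 monolayers. Their counts are not to be compared. In all, 100 genes (0.907%) were detected on both perfused arrays and no monolayer, and 47 (0.426%) on all 3 monolayers and no perfused array. Among the former, CYP3A4 had the largest bound, followed by KISS1R, a peptide hormone receptor (at least 3.68-fold), and HSD17B13, a hepatocyte lipid droplet enzyme (at least 3.19-fold). ADH1B followed with the bound given above, then RASEF (at least 2.01-fold) and ALPL, an alkaline phosphatase (at least 2.00-fold). KISS1R read 5.78, 6.10 and 6.35 against 9.80 and 7.59, and the 3 static scaffolds were higher still or alike, at 9.44, 10.13 and 8.89. Among the latter, YAP1 came first, then LIMA1, an actin-binding protein (at least 2.27-fold lower), ZNF146 (at least 2.13-fold), ERICH5 (at least 2.09-fold, with a second probe at −0.36), SEPTIN11, a cytoskeletal septin (at least 1.88-fold), and GON7 (at least 1.82-fold).

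Set against the static scaffolds as well as the monolayers, 329 genes (2.98%) had both perfused arrays above all 6 others and 343 (3.11%) had both below. Arbitrary labels on alike arrays would give shares of about this size. Membership in either set is therefore a description and was not tested. Of the drug-metabolism and transport genes described, CYP3A4, CYP3A7, POR, CYP2C8, CYP1A2, UGT1A1, SULT2A1, UGT3A1 and AQP9 were above all 6 others. HSPA1B, FADS1, FADS2, CYP8B1, CYP27A1, OTC, SHBG, APOC3, ANGPTL8, ANKRD37 and ADM were too. YAP1, JAZF1, CFAP36, CHST9, DKK3, ELOVL5, PDGFC, STAG2, UBE4A, FRG1, LAMB1, VCL and IGFBP4 were below all 6. The hypoxia genes PFKFB4, ENO2 and HILPDA, the apolipoproteins APOA1 and APOA4 and the urea cycle enzyme CPS1 were in neither set, their static values reaching into the perfused range. CYP3A4 was the only gene that passed the test of perfused against static scaffolds (1 higher, 0.00907%, and 0 lower, 0%).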

How the data were processed

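The deposited tables hold, per the file headers, a mean bead intensity and a detection p-value for 47323 probes on each of 8 arrays. These intensities were not normalised by the authors, and the detection p-values move in steps of 1/770. A second deposited table gives processed log2 values, whose base was read from the values; it served only as an alternative. The sources used here do not give the scanner software or how that table was normalised. Every array has a group in the labels.

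Intensities were background-corrected by normexp (limma 3.58.1, R 4.3.3, offset 16, negative controls inferred from detection p-values), quantile normalised over all 8 arrays and put on a log2 scale. Probes with a detection p under 0.05 on at least 2 arrays were kept (18556, of which 14115 have 1 symbol in the platform annotation), and the probe with the highest mean stood for a gene, giving 11031 genes. All 8 arrays entered a model with 3 group means (lmFit, eBayes with trend, two-sided, 5 residual degrees of freedom), adjusted by Benjamini-Hochberg at 0.05. The median SE was 0.33, and the number of arrays limits the precision. "At least" folds set undetected arrays to the higher of their value and the lowest detected level on that array. The procedure was tested on simulated data.

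The 47 lists hold 1170 genes, of which 958 were measured. Lists and the arrays compared were chosen with earlier results of these data known. Named genes were drawn from those called, the 12 of smallest p without overlap per direction, up to 4 members per list of largest difference without overlap plus the largest opposite one, up to 6 per direction by detection alone, and fixed markers. XIST, Y-linked and HLA genes and commonly deleted loci are not named. Promoter windows come from the RefSeq table (GRCh38.p14), read with Python 3.11.15, pandas 2.3.3 and Biopython 1.88.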

Additional observations from a re-analysis of the deposited data

How the results depend on the processing

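Over the 20 alternatives that tested it, CYP3A4 stayed higher (1.82 to 3.68; adjusted p 8.1e-04 to 0.371) and was called in 17. It missed the threshold with only the 2D and perfused arrays (3.51), with chip as a fixed block (3.13) and without perfused replicate 2 (3.21). The number of genes called higher was 0 in those 3 fits and among probes detected on all 8 arrays, where CYP3A4 was not tested. It was 2 without a detection filter (the second gene lies in a commonly deleted locus and is not named) and when 2D replicate 1 and static 3D replicate 1 were left out together (the second was HILPDA); leaving out single replicates gave 0 to 1. Genes called lower numbered 0 under every alternative. Without 2D replicate 1, 32 of 47 list medians shrank by over 1.5 times and 41 kept their sign. Without perfused replicate 1, 40 kept their sign, 9 shrank and 9 grew by over 1.5 times. Chip as a fixed block, which hangs on static 3D replicate 1, kept 40 signs, with 20 medians over 1.5 times larger and 9 smaller (cell cycle −3.02, macrophage 3.36), and reversed HNMT (0.68), FAM162A (0.063), IDI1 (0.26), SAA2 (3.40), CXCL2 (0.53), NR4A2 (0.62), PSMD3 (−0.79), CCN2 (0.10), LATS2 (−0.25), UQCRH (0.34), H19 (−1.18), FOXA3 (−0.42) and GPX2 (−0.017). ALB turned to 0.14 (median scaling), 0.19 (authors' values), 0.0042 (2D and perfused arrays only) and 0.029 (array weights), and ran from −0.026 to 0.045 when single replicates were left out. RXRA turned to −0.031 and MBL2 to 0.0098 with array weights, SAA2 to 0.0047 in the authors' values and 0.39 with chip as a random block, and CCNE1 to −0.028 after median scaling. Leaving out single replicates gave −0.21 to 0.51 for RXRA, −0.0082 to 3.62 for C1QB, −0.053 to 2.57 for COL1A1, −0.71 to 0.021 for MBL2, −0.65 to 0.14 for SAA2, −1.79 to 0.12 for NR4A2, −0.70 to 0.019 for DNAJC3, −0.84 to 0.88 for MT1B, −0.19 to 0.88 for ACTA2, −0.18 to 0.497 for PSMD3 and −0.11 to 0.15 for CCNE1. With 2D replicate 1 and static 3D replicate 1 out together, ALB was 0.045, RXRA −0.21, C1QB −0.0082, COL1A1 −0.053 and ACTA2 −0.19. The causes were not tested. No paired analysis was possible because the labels give no replicate numbers. Chip and group cannot be told apart except through the static arrays, and 2 perfused arrays limit every comparison.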

Other observations

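Several lists outside the main groups held single genes with separate groups. Liver transcription factors were higher for 17 of 21 members, with a median of 0.25 (0.35 without 2D replicate 1, but −0.40 with chip as a fixed block). Of these, 5 were higher without overlap (23.8% of the list against 10.8% of all genes). FOXA3, a forkhead factor of hepatocytes, read 9.22, 9.46 and 8.47 in the monolayers and 10.17 and 9.70 in the perfused scaffolds (0.88, SE 0.49, 0.97 without), and the acute-phase regulator CEBPD was 0.75 higher (SE 0.29, 0.53 without), while FOXA1 was at −0.45 with overlap (SE 0.42, −0.38 without). Iron genes were higher for 14 of 18, with a median of 0.45 (0.20 without). TFR2, the hepatocyte sensor of transferrin-bound iron, read 6.63, 8.04 and 7.49 against 8.89 and 8.32 (1.22, SE 0.44, 0.84 without), and SMAD7, an inhibitor of BMP signalling, was at −0.50 with overlap (SE 0.39, −0.32 without). Matrix proteases and inhibitors were higher for 16 of 20, with a median of 0.78 (0.38 without). MMP10, a stromelysin, read 7.43, 6.93 and 7.62 against 9.22 and 8.02 (1.29, SE 0.48, 1.34 without), and cathepsin D, CTSD, was 1.55 higher (SE 0.74, 0.82 without). ADAM9 was detected on 2 monolayers and on neither perfused array, with overlapping values (7.11, 6.07 and 7.39 against 6.175 and 6.61).

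No member of the stress lists passed the test. NRF2 and antioxidant genes had a median of 0.08 (0.18 without 2D replicate 1, −0.21 without perfused replicate 2, 0.49 without perfused replicate 1), with the epithelial glutathione peroxidase GPX2 at 0.90 (SE 0.39, 0.78 without) and malic enzyme, ME1, at −0.63 with overlap (SE 0.38, −0.50 without). Metallothioneins and zinc exporters were higher for 10 of 11, with a median of 0.40 that became 0.03 without; the abundant MT2A differed by 0.17 (SE 0.17, 0.06 without) and MT1B by −0.13 (SE 0.93, −0.43 without), and these paralogues may share signal. Unfolded protein response genes had a median of 0.21 (−0.02 without), with the chaperone DNAJB9 at 0.57 (SE 0.25, 0.44 without) and DNAJC3 at −0.34 (SE 0.35, −0.11 without). Immediate early genes had a median of 0.20 (0.08 without), and JUN read 10.92, 11.90 and 11.61 against 12.47 and 12.12 (0.82, SE 0.32, 0.54 without). NR4A2 was detected on 1 monolayer and on neither perfused array, with overlapping values (5.86, 9.69 and 6.64 against 6.54 and 6.22). Interferon genes had a median of 0.24 (0.01 without) and ran both ways: ISG20 was 0.75 higher (SE 0.30, 1.04 without), IRF7 was 0.87 higher (SE 0.43, 0.43 without) and OAS3 was lower (−0.68, SE 0.40, −0.52 without). Of 15 integrin subunits 9 were higher and 3 lay below all monolayers (20% against 10.1% of all genes), with a median of 0.20 (0.07 without, −0.28 without perfused replicate 1, 0.55 without perfused replicate 2). ITGAE was the lowest of the 3, at −0.78 (SE 0.33, −0.56 without).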
